A study of Homo sapiens with 4 samples.

Results

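The 8 genes described here encode factors that help to decide where a messenger RNA ends: CSTF1, CSTF2, CSTF2T and CSTF3 of the cleavage stimulation factor CstF, PCF11 and CLP1 of cleavage factor II (CFII), and the anti-terminators SCAF4 and SCAF8. PAS-seq, a 3′ end sequencing of polyadenylated RNA, gave 4 libraries of KYSE30 and TE-1, both established human esophageal squamous cell carcinoma (ESCC) lines. Each line has 1 library of cells exposed for 24 h to l-lactate at 20 mM, and 1 of control cells, whose treatment field reads PBS. The cell line field of the control samples names other lines (KYSE32 and TE-3), but the lines are taken here from their titles and the study's text, KYSE30 and TE-1. Poly(A) site clusters (PACs) were given to a gene when their dominant site, the position with the most tags, lay on the same strand within its GENCODE 44 span. By this rule 7 of the 8 genes held 11 of the 17627 PACs in the series, and each of the 11 was listed in all 4 libraries. SCAF4, on the minus strand at chr21:31671000-31732118 (GRCh38), had no listed PAC within this span in any library. Only PACs above a minimum are listed, and a PAC past the annotated end would not be given to the gene. Neither a level nor a limit is therefore given for SCAF4.

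Cleavage of a pre-mRNA needs a poly(A) signal upstream of the cut, usually AAUAAA, which the cleavage and polyadenylation specificity factor reads, and a U- or GU-rich element downstream of it, which CstF binds through its CSTF2 subunit. CFII bridges this machinery to the tail of RNA polymerase II and takes part in transcription termination, while SCAF4 and SCAF8 bind the same polymerase tail and restrain the use of early poly(A) sites. CSTF3 and PCF11 are known to carry a poly(A) site in an early intron, whose use gives short transcripts in place of the full-length message.

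Each condition of a line rests on a single library, so the spread between cultures is unknown, no test across replicates was run, and l-lactate cannot be told apart from any other difference between the paired libraries. TPM here are tags per 1000000 tags of a library. Being tags scaled to the library total, they carry no length term, and the levels of different genes are set side by side on that basis. Whether sites of different genes were captured equally was not tested. Tag numbers follow from the smallest step between the TPM of a library, and the 95% intervals are exact intervals of those tags, or Newcombe intervals for differences of shares. They cover counting error only. The libraries held 7174991 to 10393799 tags. Of 9 squamous and epithelial markers, 4 were listed in each KYSE30 library and 3 and 2 in the l-lactate and control libraries of TE-1, with a summed level of 956 to 1124 TPM in KYSE30 and 224 to 275 TPM in TE-1. EPCAM, CDH1, SOX2 and KRT6A made up the sum in KYSE30, where KRT17 was not listed, while KRT17 held most of that in TE-1, at 187 TPM with l-lactate and 245 TPM in the control. KRT5, KRT14, TP63 and DSG3 had no listed PAC. Of 4 markers of other cells, COL1A1 was listed in TE-1 alone, at 4.84 TPM with l-lactate and 5.39 TPM in the control, and PTPRC, PECAM1 and ALB had no listed PAC. The part of these marker differences in the differences between the lines was not tested.

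The sequences at the sites that carry the results are shown to make plain what was cleaved. Each is 30 bases of the GRCh38 reference in the sense of the transcript, 5′ to 3′, ending at the dominant site except for CSTF2, whose window stops 6 nt before it, and capitals mark the poly(A) signal.
CSTF3 intronic site, chr11:33141431-33141460, minus strand: tgcaacaacATTAAAacagtttcaatggta
CSTF3 full-length site, chr11:33084590-33084619, minus strand: taaaagtcctttaaaaAATAAAaggattca
PCF11 intronic site, chr11:83158851-83158880, plus strand: aaatttgtgAATAAAacatataaaatatgt
PCF11 full-length site, chr11:83185173-83185202, plus strand: gtaaattataAATAAAaaatatttttgcta
CSTF2 site, chrX:100840898-100840927, plus strand: tgaAATAAActttgaacacaattttagtac
CSTF2T proximal site, chr10:51697256-51697285, minus strand: tataacaaAATAAAagtttacccaaaagta
SCAF8 site, chr6:154834028-154834057, plus strand: tttagatgccAATAAAacttatttgtttga

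All 11 sites had AATAAA or ATTAAA in the 50 nt upstream, as did 83.4% of the 15102 PACs of protein-coding genes. AATAAA was found at 10 of the 11 sites and at 66.6% of all PACs. The exception was the intronic site of CSTF3, which had ATTAAA 15 nt before the cut. The gap between signal and site was 8 nt at the full-length site of CSTF3, 27 nt at the site of CSTF2 and 13 to 17 nt at the other 9 sites. TGTG or GTGT, sought in the 40 nt downstream on the transcript strand, was found at 4 of the 11 sites and at 42.0% of all PACs. The 4 sites were both sites of PCF11, the intronic site of CSTF3 and the site of SCAF8. TGTA, sought in the 100 nt upstream on the transcript strand, was found at 6 of the 11 sites against 57.8% of all PACs. It occurred 5 times before the full-length site of PCF11 and at most 2 times before any other of the 11 sites. None of the 11 sites was followed by an A-rich stretch (12 A within 20 nt or 6 A in a row), which followed 1.24% of all PACs. These matches describe the letters of the windows and do not locate a binding site.

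CSTF3, the scaffold subunit on which CstF is assembled, ended mostly in intron 3. Its intronic PAC, at chr11:33141410-33141504, had its dominant site 236 nt into intron 3 of the MANE Select transcript, an intron of 33248 nt, and 56841 nt before the dominant site of the full-length PAC at chr11:33084581-33084590. The full-length PAC lay in the 3′ UTR, 497 nt from its start. GENCODE also annotates a short transcript, CSTF3-203, whose 3′ UTR holds the intronic site, so the PAC counts as intronic on the MANE Select transcript and as 3′ UTR when all transcripts are used. PCF11, the CFII subunit that binds the polymerase tail, had an intronic PAC at chr11:83158837-83158881, with the dominant site 1249 nt into the 3695 nt of intron 1. Its full-length PAC at chr11:83185202-83185206 lay 308 nt into the 3′ UTR and 26322 nt further on. Thus 2 of the 7 genes with a PAC had a PAC in an intron of the MANE Select transcript, against 11.8% of the 8727 protein-coding genes examined. PCF11 alone of the 7 had a PAC in an intron of every overlapping transcript, against 12.8% of genes. Placed by its midpoint instead of its dominant site, this PAC of PCF11 fell in an exon of a noncoding transcript and no longer counted as intronic on all transcripts.

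**Figure D1:**
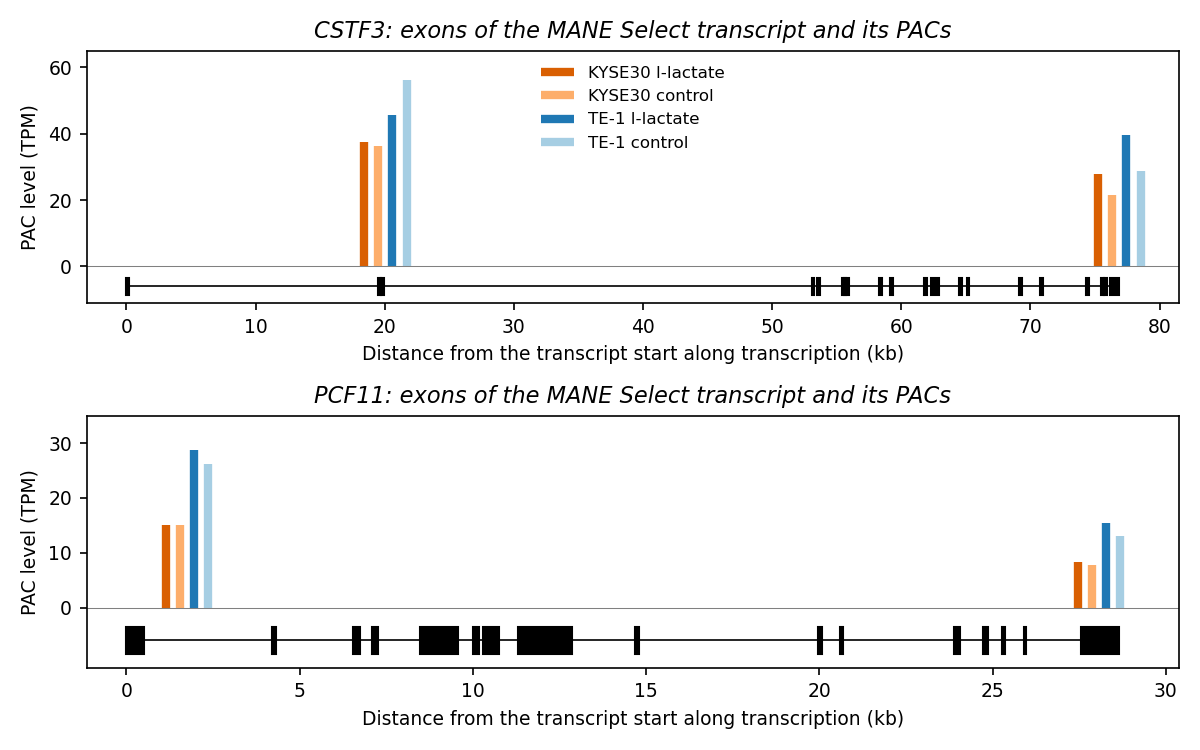
Each panel draws the exons of the MANE Select transcript of CSTF3 or PCF11 (black boxes, below 0) along the distance in kb from the transcript start, with the TPM of each PAC in the 4 libraries as coloured bars set side by side around the position of the dominant site. In both genes the bars at the early intronic PAC are higher than those at the full-length PAC in every library.

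The intronic PAC of CSTF3 held 37.6 TPM with l-lactate and 36.2 TPM in the control of KYSE30, and 45.7 and 56.3 TPM in TE-1, in the same order. The full-length PAC held 27.9 and 21.5 TPM in KYSE30 and 39.6 and 28.9 TPM in TE-1. The full-length PAC was thus higher with l-lactate in both lines, and the intronic PAC was lower with l-lactate in TE-1 and nearly level in KYSE30. For the full-length PAC the ratio of l-lactate to control was 1.29 (interval 1.046 to 1.60) in KYSE30 and 1.37 (1.17 to 1.61) in TE-1. For the intronic PAC it was 1.04 (0.874 to 1.23) in KYSE30 and 0.812 (0.712 to 0.925) in TE-1. Accordingly, the share of CSTF3 tags at the intronic PAC was 57.4% (52.8 to 62.0) in KYSE30 given l-lactate against 62.7% (57.9 to 67.3) in its control. TE-1 given l-lactate had 53.6% (49.9 to 57.3), against 66.1% (62.9 to 69.2) in its control. The libraries given l-lactate had the lower share in both lines, by more than the counting error in TE-1 and within it in KYSE30.

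The change in the intronic share of CSTF3 with l-lactate was -5.26 percentage points (-11.6 to 1.15) in KYSE30 and -12.5 percentage points (-17.2 to -7.69) in TE-1. These intervals overlapped, and the difference between the lines was not tested. A change of at least 10 percentage points in the intronic share was seen in 13.0% of 924 genes in KYSE30 and 13.8% of 921 genes in TE-1, and CSTF3 in TE-1 was the only such case among CSTF3 and PCF11. Read as distal usage of its annotated 3′ UTRs, the same tags gave a change of 12.5 percentage points in TE-1, where 11.3% of 1678 genes changed by at least 10, and 5.26 in KYSE30, where 9.17% of 1669 genes did.

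PCF11 showed the same preference for the early site with no detectable change. Its intronic PAC held 15.1 TPM in both KYSE30 libraries, and 28.8 TPM with l-lactate and 26.2 TPM in the control of TE-1. Its full-length PAC held 8.36 and 7.81 TPM in KYSE30 and 15.4 and 12.99 TPM in TE-1, with l-lactate first. Both PACs were higher in TE-1 than in KYSE30, and neither differed between l-lactate and control by more than the counting error. The intronic share was 64.3% (56.5 to 71.5) and 65.9% (58.2 to 72.97) in KYSE30 and 65.2% (60.2 to 70.1) and 66.8% (62.0 to 71.4) in TE-1. These 4 shares lay within 3 percentage points of each other. The change with l-lactate was -1.60 percentage points (-11.7 to 8.49) in KYSE30 and -1.59 (-8.22 to 5.03) in TE-1, so a change within these bounds would not have been detectable at this depth. Both CSTF3 and PCF11 had over 50% of their tags at the intronic PAC in all 4 libraries, which held for 8.06% of the 893 genes with an intronic and another PAC. Over those genes the median intronic share was 8.07% in the KYSE30 control and 12.2% in the TE-1 control.

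**Figure D2:**
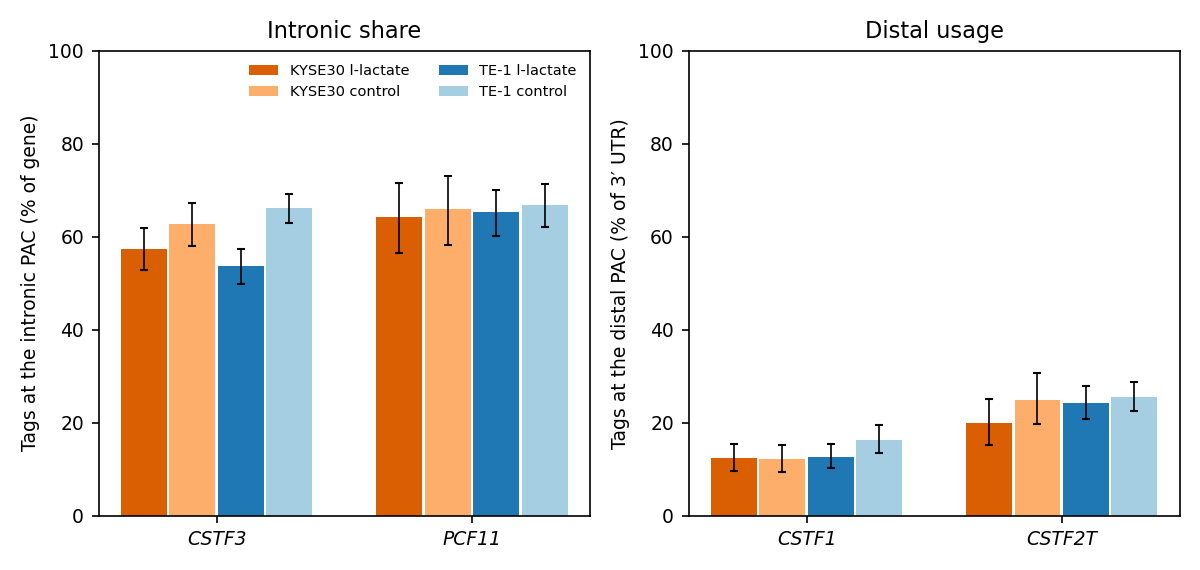
The left panel plots the share of the tags of CSTF3 and PCF11 at the intronic PAC, and the right panel the share of the 3′ UTR tags of CSTF1 and CSTF2T at the distal PAC, in percent, with bars for the 4 libraries and lines for exact 95% intervals. The l-lactate bar of CSTF3 lies below the control bar in both lines, with intervals that do not meet in TE-1, while the intervals of PCF11, CSTF1 and CSTF2T overlap within each line.

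CSTF1, the WD-repeat subunit of CstF, had both of its PACs in the 3′ UTR of its last exon. The proximal PAC at chr20:56404049-56404266 was 218 nt wide with its dominant site 527 nt into the 3′ UTR, and the distal PAC was a single position, 56406362, at the annotated transcript end 2635 nt into the 3′ UTR. PACs 1 nt wide made up 24.8% of those of protein-coding genes. The proximal PAC held 65.1 and 62.2 TPM in KYSE30 and 66.8 and 52.2 TPM in TE-1, with l-lactate first. The distal PAC held 9.20 and 8.62 TPM in KYSE30 and 9.68 and 10.2 TPM in TE-1. The control of TE-1 was the lowest of the 4 libraries at the proximal PAC and the highest at the distal PAC. With l-lactate the proximal PAC was 1.28 (1.14 to 1.44) times the control in TE-1 and 1.046 (0.918 to 1.19) times in KYSE30. The distal PAC was 0.949 (0.703 to 1.28) times the control in TE-1 and 1.07 (0.745 to 1.53) times in KYSE30, both within counting error. Distal usage was 12.4% with l-lactate and 12.2% in the control of KYSE30, a change of 0.215 percentage points (-3.76 to 4.19). In TE-1 it was 12.7% and 16.3%, a change of -3.68 (-7.52 to 0.160). Neither change was larger than the counting error.

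CSTF2 and CSTF2T encode the RNA-binding subunit of CstF. CSTF2 lies on the X chromosome, and CSTF2T is an intronless retrocopy on chromosome 10 within an intron of PRKG1, which is transcribed from the opposite strand. The single PAC of CSTF2, at chrX:100840912-100840934, lay 223 nt into the 3′ UTR. CSTF2T had a proximal PAC at chr10:51697256-51697262, 443 nt into the 3′ UTR, and a distal PAC 1 nt wide at 51695486, 2213 nt into the 3′ UTR at the annotated end. The longest run shared by the 300 nt before either site of CSTF2T and the 300 nt before the CSTF2 site was 9 nt, so the ends of the paralogs differ in sequence. CSTF2 stood at 36.9 and 35.6 TPM in KYSE30 and 47.1 and 50.1 TPM in TE-1, with l-lactate first. CSTF2T stood at 36.5 and 34.1 TPM in KYSE30 and 70.1 and 72.8 TPM in TE-1. The paralogs were level in KYSE30, and CSTF2T was the higher in TE-1. The ratio of CSTF2T to CSTF2 tags was 0.989 (0.830 to 1.18) and 0.958 (0.803 to 1.14) for the treated and control KYSE30 libraries, against 1.49 (1.31 to 1.69) and 1.45 (1.30 to 1.63) in TE-1. The intervals of the lines did not overlap, and those of l-lactate and control did.

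The proximal PAC of CSTF2T held 29.3 and 25.6 TPM in KYSE30 and 53.1 and 54.3 TPM in TE-1, with l-lactate first, and its distal PAC held 7.25 and 8.48 TPM in KYSE30 and 17.0 and 18.6 TPM in TE-1. Both PACs were higher in the TE-1 libraries. Distal usage was 19.9% and 24.9% in KYSE30, a change of -5.05 percentage points (-12.2 to 2.15) with l-lactate, and 24.2% and 25.5% in TE-1, a change of -1.25 (-5.85 to 3.42). Of CSTF1, CSTF2T and CSTF3, the 3 genes with more than 1 annotated 3′ UTR PAC, only CSTF3 in TE-1 had a change in distal usage whose interval left out 0.

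CLP1, the RNA kinase of CFII, had a single PAC at chr11:57661858-57661863, 427 nt into the 3′ UTR. It stood at 26.9 and 29.1 TPM in KYSE30 and 29.99 and 32.4 TPM in TE-1, with l-lactate first. CLP1 thus kept to a narrow range over the libraries, and the ratio of l-lactate to control was 0.925 in both lines (0.758 to 1.13 in KYSE30 and 0.783 to 1.09 in TE-1).

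SCAF8 had a single PAC at chr6:154834057-154834059, 662 nt into its 3′ UTR. The same strand there also carries introns of 3 transcripts of TIAM2, whose span begins upstream of this site, so a tag from such a transcript would be counted for SCAF8. The dominant site held 97.9% to 98.1% of the tags in each library. SCAF8 stood at 65.5 TPM with l-lactate and 48.3 TPM in the control of KYSE30, and at 47.5 and 38.0 TPM in TE-1. In each line the l-lactate library was the higher, and each KYSE30 library was above the TE-1 library of the same treatment. The ratio of l-lactate to control was 1.36 (1.18 to 1.56) in KYSE30 and 1.249 (1.08 to 1.44) in TE-1.

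**Figure D3:**
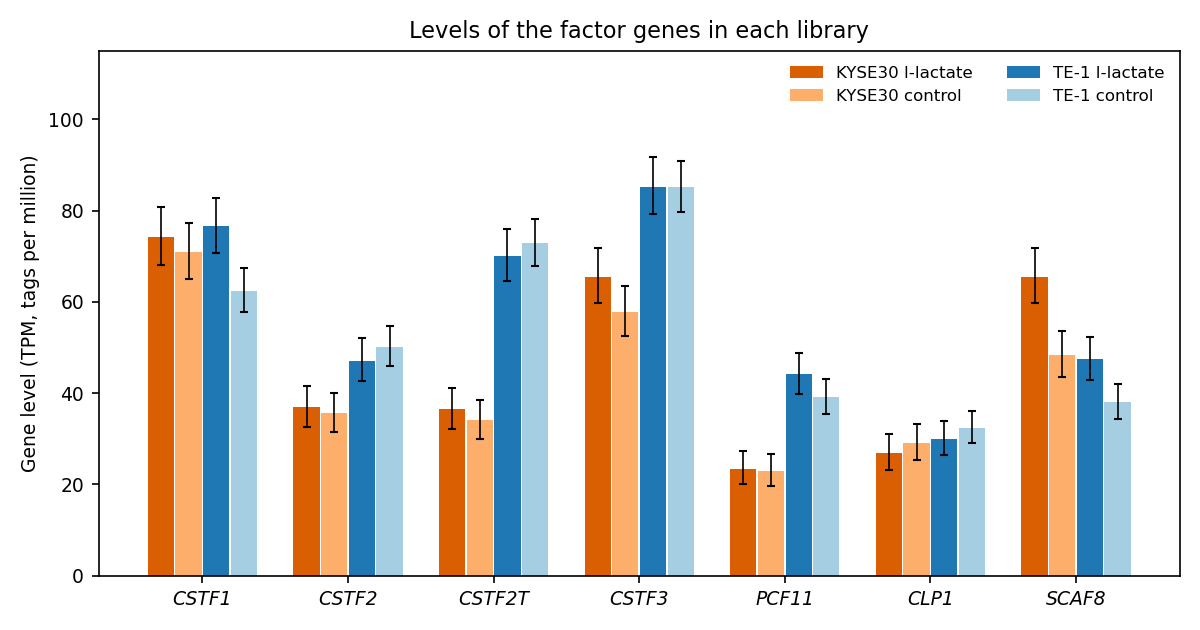
Bars give the TPM of the 7 genes with a listed PAC in the 4 libraries, on a linear axis from 0, with exact Poisson 95% intervals of the tags. CSTF2, CSTF2T, CSTF3 and PCF11 are higher in both TE-1 libraries than in either KYSE30 library, with intervals that do not meet. SCAF8 is highest in KYSE30 with l-lactate, at 65.5 TPM.

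At the level of whole genes, none of the 7 genes differed by 1.5-fold between l-lactate and control on the log2(TPM + 1) scale in either line, where 3.04% of 8890 genes in KYSE30 and 2.95% of 8748 genes in TE-1 were past it. The log2 ratios ran from -0.11 for CLP1 to 0.43 for SCAF8 in KYSE30, with a median of 0.07 beside 0.01 over all genes. In TE-1 they ran from -0.11 for CLP1 to 0.31 for SCAF8, with a median of 0.002 beside 0.04 over all genes. The counting interval of the ratio left out 1 for SCAF8 in KYSE30, 1 of 7 genes beside 24.2% of all genes, and for CSTF1 and SCAF8 in TE-1, 2 of 7 beside 31.0%. CSTF1 stood at 74.3 and 70.8 TPM in KYSE30 and 76.5 and 62.4 TPM in TE-1, with l-lactate first, and its ratio in TE-1 was 1.22 (1.10 to 1.37). SCAF8 alone of the 7 genes had an interval that left out 1 in the same direction in both lines, as did 7.82% of 7842 genes. Of the 11 PACs, that of SCAF8 and the full-length PAC of CSTF3 did so, beside 8.80% of 8777 PACs. With so few genes, nothing particular to them is read from these counts. CSTF3 as a whole stood at 65.5 and 57.8 TPM in KYSE30 and at 85.3 and 85.1 TPM in TE-1, so in TE-1 its sum was level between the treatments while its PACs differed in opposite directions.

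**Figure D4:**
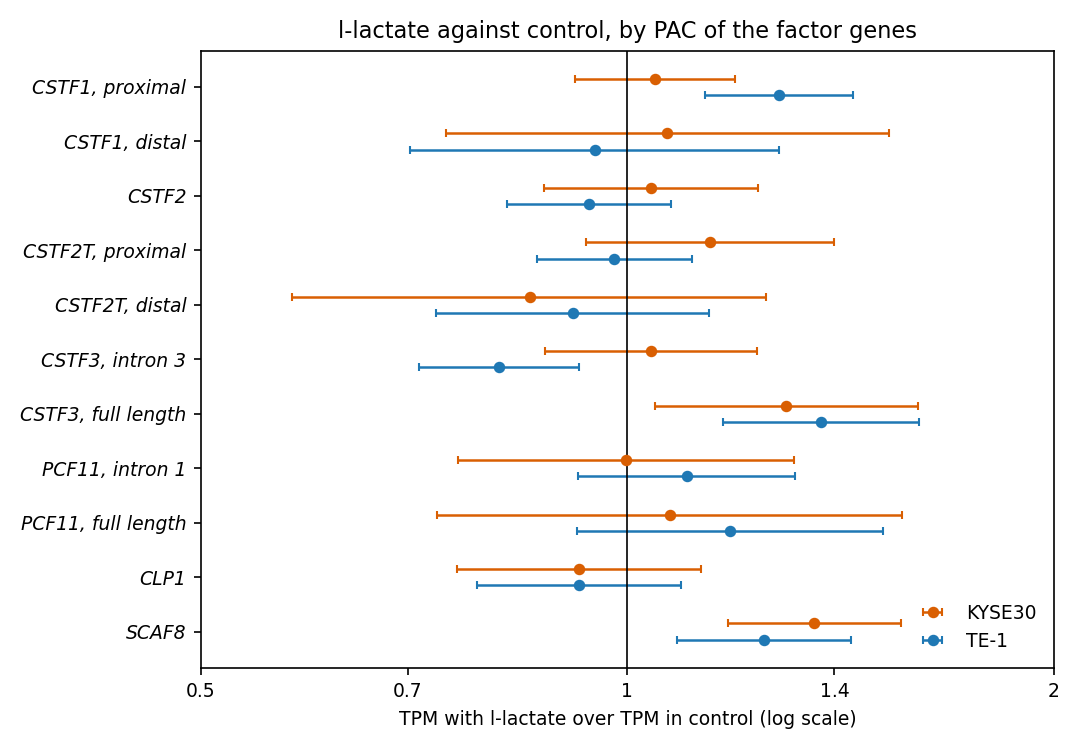
Points give the TPM with l-lactate over that in the control for each of the 11 PACs, on a log axis, in KYSE30 and TE-1, with exact 95% intervals for counting error. Only the full-length PAC of CSTF3 and the PAC of SCAF8 lie to the right of 1 with their whole interval in both lines.

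No dominant site moved by more than 24 nt, the distance within which sites were joined, in any of the 11 PACs of either line, where 1.46% of 9951 PACs in KYSE30 and 1.22% of 9912 in TE-1 did. The dominant site was the same position in 10 of 11 PACs in KYSE30 and in all 11 in TE-1. The full-length PAC of PCF11, whose dominant site lay 4 nt further downstream with l-lactate in KYSE30, was the exception. There the dominant site held 46.7% of 60 tags with l-lactate and 39.7% of 58 tags in the control. The intronic PACs were wider, 95 nt for CSTF3 and 45 nt for PCF11, against 5 nt for this full-length PAC. Most tags of the intronic PACs nonetheless lay at the dominant site. It held 85.5% to 92.9% of the tags of the CSTF3 intronic PAC and 86.5% to 97.2% of those of PCF11 over the libraries. In TE-1 the PCF11 share was lower after l-lactate, 86.5% (81.5 to 90.5) against a control value of 95.2% (92.0 to 97.4). The CSTF3 share was higher there after l-lactate, 91.5% against 85.5%. In KYSE30 both differences had the opposite sign, with overlapping intervals. The dominant site of the PCF11 intronic PAC, 83158880, held 97.2% and 94.6% of the tags in KYSE30, with l-lactate first. The listed lower quantile position of the tags was nonetheless 83158837 in both libraries, which conflicts with these shares. In 16 to 19 PACs of each library the listed dominant level also exceeded that of its PAC. Shares at the dominant site are therefore approximate.

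Between the lines, CSTF2T and PCF11 were the genes that differed most. CSTF2T in TE-1 was 2.14 (1.85 to 2.47) times that in KYSE30 in the control libraries and 1.92 (1.66 to 2.23) times in the l-lactate libraries. PCF11 stood at 23.4 and 22.9 TPM in KYSE30 and 44.2 and 39.2 TPM in TE-1, with l-lactate first, so its ratios were 1.71 (1.43 to 2.06) in the controls and 1.89 (1.57 to 2.28) with l-lactate. Both ratios of both genes were clear of 1. None of the 7 genes passed 2-fold in both pairs, which 27.9% of 8999 genes did, and CSTF2T and PCF11 passed 1.5-fold in both pairs, 2 of 7 genes beside 46.1%. CSTF3 in TE-1 was 1.47 (1.31 to 1.66) and 1.30 (1.16 to 1.47) times that in KYSE30, and CSTF2 was 1.41 (1.21 to 1.64) and 1.28 (1.09 to 1.496) times, in the control and l-lactate pairs. SCAF8 went the other way, at 0.786 (0.680 to 0.909) and 0.725 (0.633 to 0.830). The intervals of these 5 genes left out 1 in the same direction in both pairs, as those of 70.9% of all genes did. For CLP1 the ratio was 1.11 in both pairs, with intervals that held 1. For CSTF1 it was 0.881 (0.784 to 0.991) in the controls and 1.03 (0.917 to 1.16) with l-lactate.

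**Figure D5:**
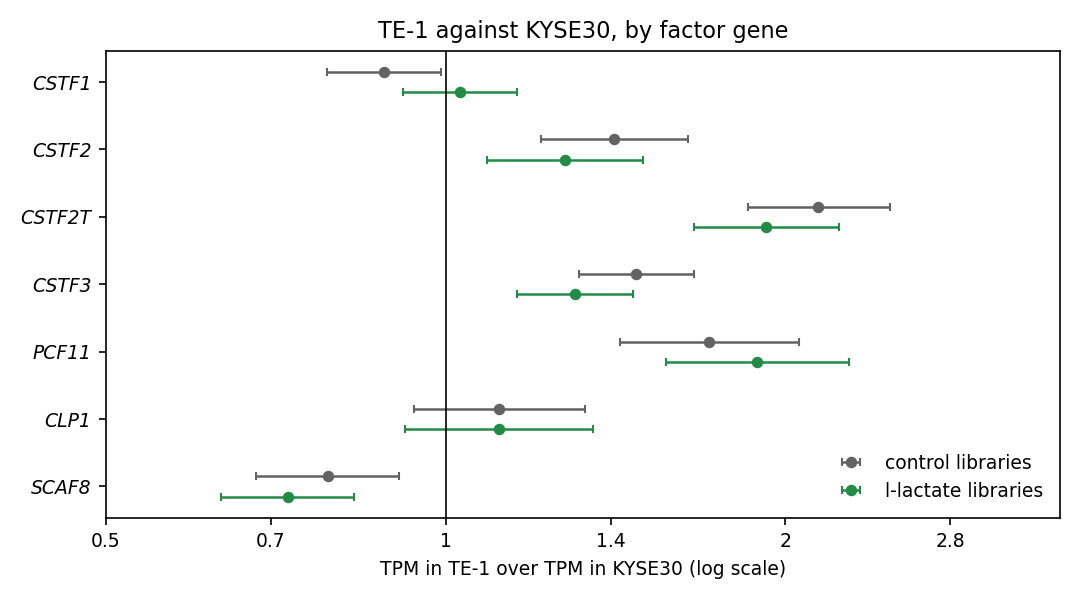
Points give the TPM in TE-1 over that in KYSE30 for the 7 genes on a log axis, for the control pair and the l-lactate pair, with exact 95% intervals for counting error. CSTF2T and PCF11 lie farthest to the right, SCAF8 lies to the left of 1 and CLP1 lies on it within its interval in both pairs.

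The shares at the sites of CSTF3, PCF11 and CSTF2T differed between the lines by less than their counting error in both pairs. The intronic share of CSTF3 in TE-1 minus that in KYSE30 was 3.40 percentage points (-2.07 to 8.97) in the controls and -3.85 (-9.55 to 1.93) with l-lactate. That of PCF11 differed by 0.948 (-7.25 to 9.56) and 0.955 (-7.50 to 9.77). For the distal usage of CSTF2T the differences were 0.594 (-5.82 to 6.48) and 4.39 (-1.79 to 10.1). PCF11 and CSTF2T were therefore higher in TE-1 at each of their sites. The distal usage of CSTF1 was 4.17 points higher in the control of TE-1 than in that of KYSE30 (0.113 to 8.12), and 0.272 points higher with l-lactate (-3.59 to 4.03).

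Within a library, the order of the levels differed between the lines, by larger steps of place in the controls, but several neighbours were within counting error. In the control of KYSE30 the order from the highest was CSTF1, CSTF3, SCAF8, CSTF2, CSTF2T, CLP1 and PCF11, from 70.8 down to 22.9 TPM. Neighbours in this order whose ratio had an interval holding 1 were CSTF2 and CSTF2T, and CSTF2T and CLP1. In the control of TE-1 the order was CSTF3, CSTF2T, CSTF1, CSTF2, PCF11, SCAF8 and CLP1, from 85.1 down to 32.4 TPM, and only the neighbours PCF11 and SCAF8 had a ratio whose interval held 1. Between these controls CSTF2T stood in the fifth place in KYSE30 and the second in TE-1, and SCAF8 in the third and the sixth. With l-lactate the steps were smaller, with CSTF2T in the fifth place in KYSE30 and the third in TE-1, and SCAF8 in the third and the fourth, where its ratio to CSTF2, the next gene down in TE-1, had an interval holding 1. All 7 genes were expressed at middle to upper levels. They lay between percentiles 44.7 for PCF11 and 75.6 for CSTF1 of the protein-coding genes with a listed PAC in the KYSE30 control, and between 55.4 for CLP1 and 78.8 for CSTF3 in the TE-1 control.

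Other genes of the pathway were read from a list of 17 further cleavage and polyadenylation factors and a list of 23 factors of elongation, termination and binding to the polymerase tail. With l-lactate 0 of 15 tested genes of the first list passed 1.5-fold in KYSE30, beside 3.04% of all genes. In TE-1 1 of 15 did, beside 2.95%, namely CPSF6, a subunit of cleavage factor I. CPSF6 stood at 178 and 140 TPM in KYSE30 and 283 and 168 TPM in TE-1, with l-lactate first, so it was the higher with l-lactate in both lines. None of the 22 and 21 tested genes of the second list passed 1.5-fold in KYSE30 or TE-1. The median log2 ratio in KYSE30 and TE-1 was 0.05 and -0.01 for the first list and 0.02 and 0.03 for the second, near those of the 7 genes. Between the lines 0 of 15 and 2 of 22 genes passed 2-fold in both pairs, beside 27.9% of 8999 genes. The 2 were CTR9, a subunit of the PAF1 complex, higher in TE-1 at 101 against 48.8 TPM in the controls, and PPP1R10, a phosphatase-targeting subunit, lower at 2.12 against 36.8 TPM.

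The genes of these lists whose pattern over the 4 libraries was nearest, by the Euclidean distance of centred log2(TPM + 1) values among 37 genes, were CTR9 for CSTF2T (0.0952), WDR33 for CSTF2 (0.108), PAF1 for CLP1 (0.108), CCNK for PCF11 (0.113), CDC73 for CSTF3 (0.167) and CDK12 for SCAF8 (0.231). CTR9 stood at 51.7 and 48.8 TPM in KYSE30 and 106 and 101 TPM in TE-1, the same step between the lines as CSTF2T shows. CDK12 stood at 58.3 and 52.0 TPM in KYSE30 and 43.5 and 33.3 TPM in TE-1, with l-lactate first in each, and was highest in the same library as SCAF8. These are likenesses over 4 libraries that share lines and depth, and no more than a description.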

How the data were processed

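PAS-seq libraries of KYSE30 and TE-1 cells, 1 per line and treatment, were read from the deposited tables of PACs. Per the study's methods, the authors aligned trimmed reads to GRCh38 (GRCh38.p14 in the submitters' processing notes) with HISAT2 and found sites with CAGEr, sites under 1 TPM were left out, those within 24 nt were joined, lone sites under 3 TPM were removed, and PACs within 500 nt that were above a minimum in all samples were joined further. The deposited TPM are in effect RPM, the tags of a PAC scaled to the library total, with no length term. Every value was a whole number of tags within 0.1 tag. A missing PAC entered as 0, and the lowest listed value was 1.06 to 1.12 TPM.

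PACs were joined between libraries by their number and placed on GENCODE 44 by the dominant site of the library with the highest TPM. Intronic shares use the MANE Select transcript, and distal usage the 3′ UTR PACs of all transcripts with TPM above 5 in a library of the line. Shifts needed TPM above 5 in both libraries. Level comparisons used genes with a mean of at least 5 TPM and a pseudocount of 1. Exact (Clopper-Pearson) 95% intervals, conditional on the sum of tags for ratios, and Newcombe intervals cover counting error alone, and PCR copies are not independent molecules. With 1 library per group no test across replicates was run. The 8 genes and the lists were chosen with earlier results of these data known, and the named genes are these 8, list genes past a fold and the nearest list gene of each, which for CSTF1 is not reported here. The use of intervals on the same side of 1 in both lines was chosen after seeing the data. Scripts were tested on simulated tags. SciPy 1.17.1, pandas 2.3.3, NumPy 2.4.6 and matplotlib 3.10.9 were used under Python 3.11.15.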

Additional observations from a re-analysis of the deposited data

How the results depend on the processing

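No paired analysis over replicates was possible because each group has 1 library. A fit over all 4 libraries with the line as a term, which would take the lines as replicates, was not run. The 168 recomputed log2 ratios of gene levels (other pseudocounts, median-of-ratios scaling, a longer span, 3′ UTR PACs only, PACs listed in all libraries) stayed within the counting intervals of the reported values. All 11 PACs were listed in all 4 libraries, so that setting could not change a ratio, and the longer span changed none. The longer span was not applied to SCAF4, which held no PAC. The 3′ UTR setting used all transcripts, so it kept the intronic PAC of CSTF3 and could change only the ratios of PCF11. The full-length PAC of CSTF3 alone had a ratio of l-lactate to control of 1.37 in TE-1. This lies outside the interval of the whole gene, 0.906 to 1.106. At the lower folds of the alternatives the count of genes past the fold was 1 of 7 (SCAF8, beside 14.6% of all genes) for l-lactate in KYSE30 and 2 of 7 (CSTF2T and PCF11, beside 46.1%) between the lines, in place of 0. With all transcripts the intronic share of CSTF3 is 0, and on the MANE Select transcript alone it was 57.4%, 62.7%, 53.6% and 66.1% (KYSE30 l-lactate and control, then TE-1), with 42.5%, 37.3%, 46.4% and 33.9% left as its 3′ UTR share. Placed by the midpoint on all transcripts, the intronic PAC of PCF11 fell in an exon of a noncoding transcript, and its intronic share was then 0 in all 4 libraries. The whole PAC lies within intron 1 of the MANE Select transcript, so its share on that transcript does not depend on this choice. By the lower quantile position, 1 PAC (PCF11, intronic) moved by -43 nt in TE-1. Counted over PACs in place of genes, 2 had intervals on the same side of 1 in both lines. The 16 recomputed changes in distal usage equalled the reported values. CSTF1, CSTF2T and CSTF3 have only 2 PACs each, both in an annotated 3′ UTR and above 5 TPM, so these settings could not change them. With a minimum of 10 TPM, the distal usage of CSTF2T and CSTF1 could not be computed in KYSE30, since their distal PACs, though listed, lay below it. In KYSE30 the distal PACs of CSTF1 and CSTF2T and the full-length PAC of PCF11 rest on 52 to 66 tags each, which limits their precision.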
